A study of Mus musculus with 30 samples.

Results

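Extraocular muscle of the mouse, which turns the eyeball, was followed in cell culture by array, and the question here was how its RNA differed between 12 h and 24 h. The comparison took the 3 arrays titled 24 h and the 3 titled 12 h on each of the A and B Affymetrix types, so 12 of the 30 arrays of the series. The labels give no genotype, strain, age, medium or treatment for either group, only the tissue, the culture and the time. The zero point of the time scale, the origin of the replicates (separate cultures or 1 culture) and the sharing of RNA between A and B arrays are all unstated. The spread behind the p-values is thus that of arrays and may be technical. Every array had been scaled to a fixed mean, so each change is relative to the array and a change in total RNA cannot be seen. In bulk RNA, fewer cells of a type and less RNA per cell cannot be told apart.

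The 12 h and 24 h arrays had median intensities between 154.7 and 181.5 (A) or between 272.8 and 290.1 (B). Their mean correlation with the other arrays of their time was 0.962 to 0.979 on A and 0.863 to 0.891 on B. The Gapdh 3' to 5' signal ratio of these 12 arrays lay between 0.753 and 0.877. General skeletal muscle and myogenic markers were bright on the A arrays at both times, though they do not tell extraocular from other muscle. Skeletal actin Acta1 had mean intensities of 15060 at 12 h and 13120 at 24 h, embryonic myosin Myh3 7933 and 8675, and the myogenic factors Myog 11830 and 10210 and Myod1 7132 and 6128. Muscle creatine kinase Ckm was uneven between arrays of 1 time, at 2541, 2184 and 316 at 12 h and 2364, 1874 and 1152 at 24 h, and replicate 3 was the lowest at each time. The label of 1 B array, 0 h replicate 1, names leg muscle as the source although its title does not. It entered only the estimate of spread, and the B count given below was 0 with and without it.

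Of the 9 genes with 1 symbol that passed, all on the A arrays, 7 fell and 2 rose between 12 h and 24 h. Among the 7, 6 encode enzymes that process foreign or reactive chemicals or reduce related substrates, and their mean intensities were 2.07-fold to 3.78-fold lower at 24 h. The aryl hydrocarbon receptor is a transcription factor that binds planar aromatic ligands, pairs with ARNT and switches on genes such as Cyp1a1, whose product can in turn oxidise and clear the ligand. NRF2, encoded by Nfe2l2, is held back by KEAP1 until oxidants or electrophiles modify it, and then raises glutathione, thioredoxin and quinone-reducing enzymes. Several genes, Nqo1 and Aldh3a1 among them, are known targets of the receptor, and Nqo1 and glutathione S-transferases are known targets of NRF2.

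Promoters are shown for the 2 fallen enzymes with a window that held the letters of the short core recognised by the receptor pair. The windows are the 250 bases before the start site, from RefSeq on GRCm38.p6, and the capitals mark the core letters GCGTG. Cyp1a1 lies at chr9:57697363-57697612 on the plus strand, and the Blvrb window at chr7:27447728-27447977 on the plus strand.
Cyp1a1: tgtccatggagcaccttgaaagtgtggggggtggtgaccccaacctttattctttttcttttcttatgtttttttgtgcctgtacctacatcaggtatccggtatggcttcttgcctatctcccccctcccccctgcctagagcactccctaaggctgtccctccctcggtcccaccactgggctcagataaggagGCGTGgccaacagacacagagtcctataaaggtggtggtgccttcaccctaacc
Blvrb: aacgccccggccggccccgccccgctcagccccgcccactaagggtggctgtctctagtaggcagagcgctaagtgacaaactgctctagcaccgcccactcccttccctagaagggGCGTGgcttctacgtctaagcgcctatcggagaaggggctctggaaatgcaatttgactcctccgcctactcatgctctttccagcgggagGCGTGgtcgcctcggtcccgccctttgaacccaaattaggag
The core begins 54 bases before the Cyp1a1 start, and 133 and 42 bases before the Blvrb start, always on the gene's strand and always inside the longer run GGCGTGG. A second Blvrb window in the table, at another start, held no match. Both strands were searched. Of the 9 called genes with 1 symbol, 6 were in the RefSeq table, and 4 of these held GCGTG (Cyp1a1, Blvrb, Id3 and Kdelr3), while the windows of Nqo1 and Ptgr1 did not. Counted by window, as a gene can have several, 4 of their 7 windows held it, against 28.2% of all 32851 windows of this length. The antioxidant response core TGACNNNGC was in 1 window, that of Kdelr3, and in 10.2% of all windows. Such matches describe letters only, and no binding was measured. The bases beside the core were not compared with a full receptor site, so a match need not be one. Whether the receptor uses any of these matches was not tested, and bases farther upstream were not searched.

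Cyp1a1, the cytochrome P450 that oxidises polycyclic aromatic ligands, had intensities of 362, 343 and 174 on the 12 h A arrays and 79.1, 81.2 and 71.8 on the 24 h arrays. Every 24 h array lay below every 12 h array, and 12 h replicate 3 was the lowest of its time. Such separation, here and below, is description only, as called genes were picked by p-value on the same arrays. It was met by 12.5% of all tested A probe sets. The mean fell from 293 ± 103 (SD, n = 3) to 77.4 ± 4.93, a log2 change of -1.66 ± 0.22 (SE, adjusted p = 0.00531). All log2 changes are of intensity plus 16, so they understate the changes of dim probe sets, and all adjusted p-values are limma's after Benjamini-Hochberg adjustment over all tested probe sets of an array type. Aldh3a1, an aldehyde dehydrogenase, gave 1147, 964 and 475 at 12 h and 298, 269 and 225 at 24 h. Its groups did not overlap, although the 12 h arrays spread widely. The log2 change was -1.57 ± 0.26 (adjusted p = 0.0205).

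Nqo1, the quinone reductase, read 1333, 1448 and 1212 at 12 h and 774, 578 and 479 at 24 h. The 24 h arrays were all lower, with a log2 change of -1.13 ± 0.16 (adjusted p = 0.00597). Gsta4 encodes the glutathione transferase that detoxifies 4-hydroxynonenal and related lipid aldehydes. It read 1075, 779 and 770 at 12 h and 299, 257 and 296 at 24 h, a 3.08-fold lower mean. The groups did not overlap, but the 12 h arrays spread more widely than the 24 h arrays, whose SD was 23.5 (n = 3). The log2 change was -1.56 ± 0.21 (adjusted p = 0.00531).

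Ptgr1, prostaglandin reductase 1, an NADPH-dependent enzyme that reduces unsaturated aldehydes and ketones as well as eicosanoids, had the steadiest call. Its intensities were 4662, 3992 and 4545 at 12 h and 2083, 1871 and 1682 at 24 h. The 24 h arrays lay well below all of the 12 h arrays, and the fall of 1.22 ± 0.13 on the log2 scale had the smallest adjusted p of the comparison (0.000452). It passed under all 26 alternatives, which none of the other called genes did. Blvrb, biliverdin reductase B, which reduces flavins and biliverdin, read 568, 526 and 444 at 12 h and 250, 268 and 225 at 24 h. The groups did not overlap, and the log2 change was -0.999 ± 0.15 (adjusted p = 0.0142). Ptgr1 and Blvrb were outside the list of NRF2 and receptor targets described below.

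A further probe set that fell, 1424783_a_at, matches several genes of the Ugt1a cluster, the glucuronosyltransferases that conjugate drugs and bilirubin, and cannot name one of them. It read 158, 201 and 117 at 12 h and 64, 38.3 and 17.6 at 24 h, a log2 change of -1.70 ± 0.31 (adjusted p = 0.0467). The groups were apart, but the 24 h values were dim and spread, and the call held under 7 of 25 alternatives. A sister probe set for the same genes, 1426260_a_at, read 323, 335 and 162 at 12 h and 93.0, 86.9 and 119 at 24 h, and did not pass (-1.27 ± 0.25, adjusted p = 0.075).

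**Figure D1:**
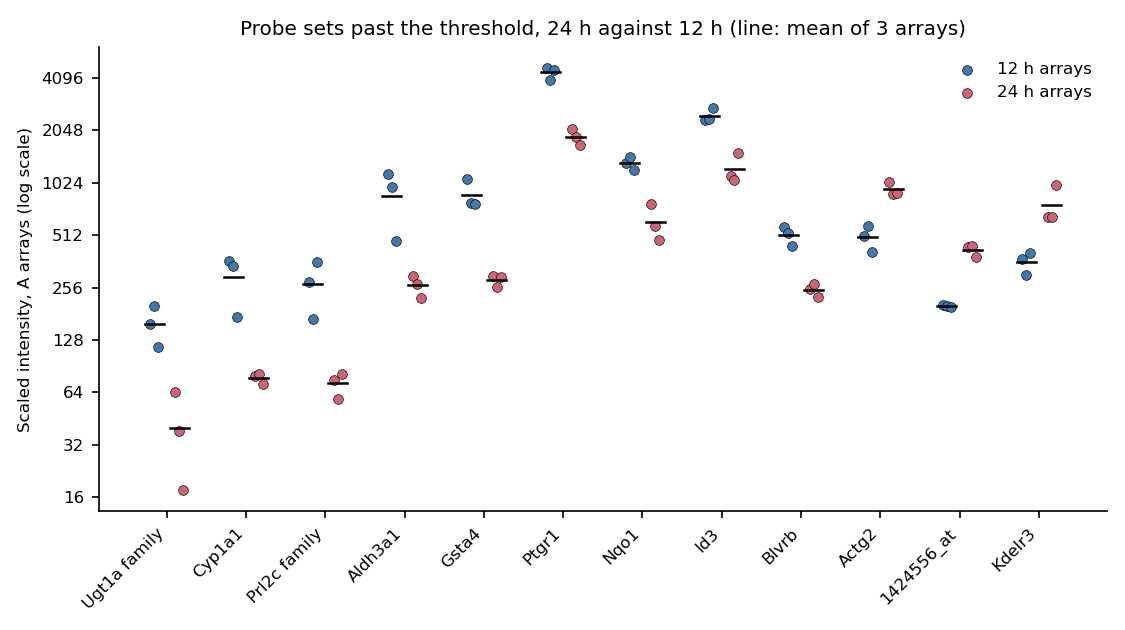
Scaled intensity on the A arrays, on a log axis, of the 12 probe sets past the threshold, with 3 arrays at 12 h (blue) and 3 at 24 h (red) and a line at each mean. In all 12 the groups do not overlap, but they were picked by p-value on these same arrays, so this adds no support. Of all tested A probe sets 12.5% do not overlap. Of the 12, 9 are lower and 3 higher at 24 h. The lowest blue point is 12 h replicate 3 for Cyp1a1, Aldh3a1, Nqo1, Gsta4, Blvrb, Actg2, the Ugt1a probe set and the unnamed one. It is not for Ptgr1, Id3, Kdelr3 or the Prl2c probe set.

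The 6 named enzymes did not share 1 course over the series. These values share the 12 h and 24 h arrays with the comparison above and are given side by side only. Cyp1a1 had means of 787 at 0 h, 1369 at 4 h, 293 at 12 h, 77.4 at 24 h and 49.7 at 48 h. Its larger step lay before 12 h, with a log2 change of -2.23 ± 0.22 from 4 h to 12 h (adjusted p = 0.000195). Nqo1 also fell from 4 h to 12 h, from 2299 to 1331 (-0.78 ± 0.16, adjusted p = 0.045), and its mean at 48 h was 841.

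Aldh3a1 stood at 966 at 4 h and 862 at 12 h, close to each other (-0.24 ± 0.26, adjusted p = 0.768), so the step between 12 h and 24 h was the one that passed. Its mean was 264 at 24 h and 445 at 48 h. Gsta4 had means of 1500, 1495, 875, 284 and 378 at 0, 4, 12, 24 and 48 h, and Ptgr1 had 5429, 6086, 4399, 1879 and 2422. For Blvrb the means were 586, 692, 513, 248 and 286. None of the 6 passed between 24 h and 48 h, where adjusted p ranged from 0.226 (Nqo1) to 0.694 (Blvrb), and that difference from the earlier step was not tested.

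**Figure D2:**
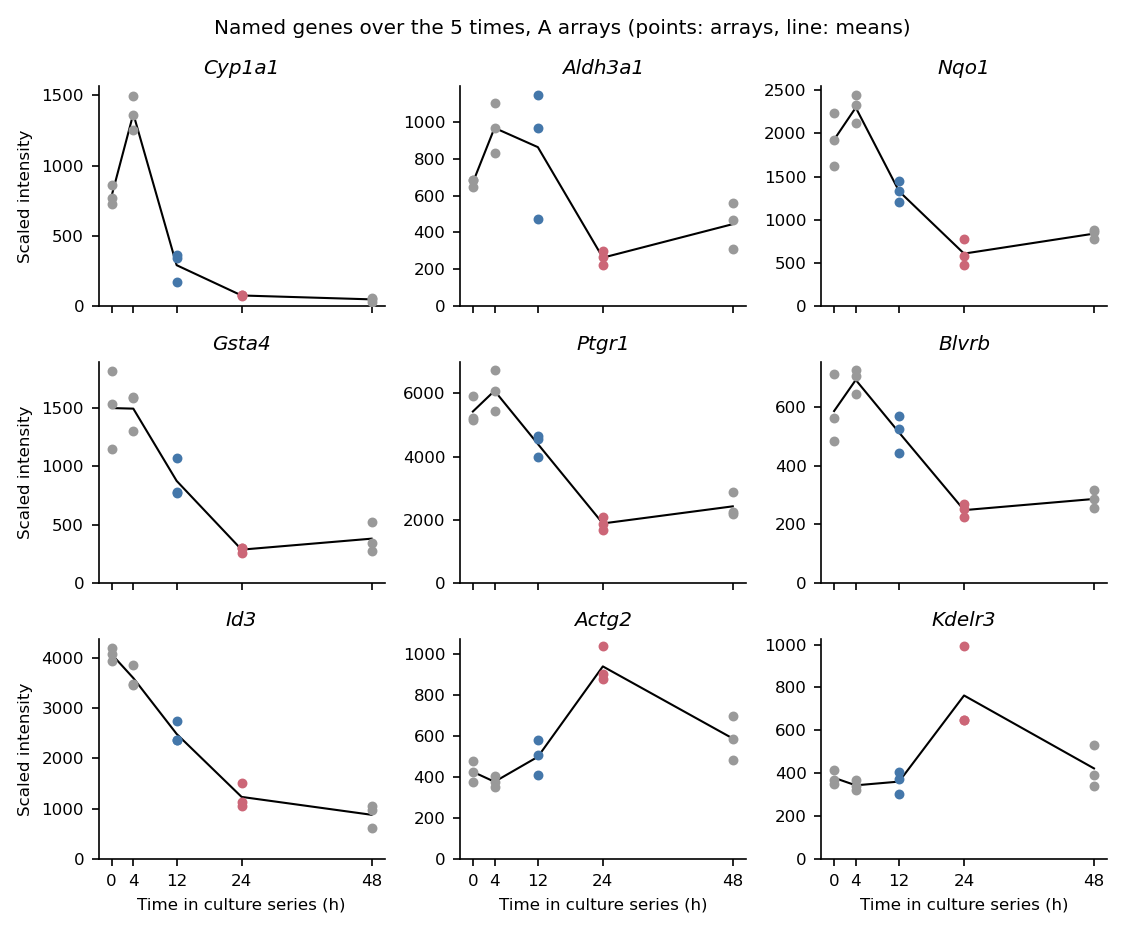
Scaled intensity of 9 named genes on the A arrays at 0, 4, 12, 24 and 48 h, with each array as a point (12 h blue, 24 h red) and a line through the means. Cyp1a1 drops mostly between 4 h and 12 h, from 1369 to 293, whereas Ptgr1 drops from 4399 to 1879 between 12 h and 24 h; Actg2 and Kdelr3 are highest at 24 h.

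Of the 35 genes listed as NRF2, glutathione and aryl hydrocarbon receptor targets, 28 were tested on the A arrays. Of these 28, 4 fell (Cyp1a1, Gsta4, Nqo1 and Aldh3a1), against 0.0663% of all tested probe sets called lower and 0.0221% called higher. At an unadjusted p under 0.05, 11 of 28 were lower and 1 higher, where 4.12% of the 7883 tested genes were lower and 3.63% higher. The same shares stand beside every other A list count below. The median log2 change of the list was -0.23, against -0.01 over all genes, and 24 of 28 changes were negative. The list was chosen with earlier results of these data known, so its count is a description. With median scaling the 11 became 7, and with only the 12 h and 24 h arrays 1 of the 28 passed.

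Among those that did not pass, Gstm1, a glutathione transferase, read 1482, 1522 and 1202 at 12 h and 849, 969 and 1052 at 24 h (-0.54 ± 0.16, adjusted p = 0.376). Gclm, the modifier subunit of the enzyme that limits glutathione synthesis, read 789, 689 and 740 and then 525, 595 and 488 (-0.45 ± 0.15, adjusted p = 0.464). Neither overlapped between the times, but neither change reached the threshold. Nfe2l2 itself had means of 1789 and 1459 (-0.29 ± 0.11, adjusted p = 0.526). Thioredoxin Txn1 and its reductase Txnrd1 had log2 changes of -0.25 ± 0.10 and -0.29 ± 0.12.

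The receptor's own transcript Ahr had means of 797 and 729 with overlapping arrays (-0.12 ± 0.18, adjusted p = 0.936), and a second Ahr probe set had the opposite sign (0.31 ± 0.25). Its repressor Ahrr and the other P450 target Cyp1b1 had changes of -0.69 ± 0.24 and -0.38 ± 0.18, both with overlapping arrays. Not all stress-defence genes had negative changes. Osgin1, an oxidative stress-induced growth inhibitor, read 125, 136 and 107 at 12 h and 190, 233 and 153 at 24 h (0.57 ± 0.22, adjusted p = 0.564). Heme oxygenase Hmox1, a textbook NRF2 target, had means of 432 and 453 and overlapping arrays (0.06 ± 0.29, adjusted p = 0.992).

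Id3, an inhibitor of basic helix-loop-helix factors such as MyoD and a target of BMP signalling, also fell. It read 2360, 2366 and 2734 at 12 h and 1125, 1062 and 1517 at 24 h. The groups were separate, with means of 2486 ± 215 and 1235 ± 247 (SD, n = 3), and the log2 change was -1.02 ± 0.17 (adjusted p = 0.0253). Means at 0, 4 and 48 h were 4068, 3596 and 880, so its level was lower at each later time sampled. The steps from 4 h to 12 h (adjusted p = 0.221) and from 24 h to 48 h (adjusted p = 0.239) did not pass.

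Id3 was the only called gene of 12 tested on the list of Id genes and TGF-beta and BMP targets. At an unadjusted p under 0.05, 4 of the 12 were lower and none higher, against 4.12% and 3.63% of all A genes. The list's median was -0.47. Id2 read 1048, 926 and 1262 at 12 h and 512, 459 and 679 at 24 h (-0.96 ± 0.25, adjusted p = 0.272). Id1 read 2138, 2514 and 1804 and then 1538, 1531 and 1280 (-0.56 ± 0.17, adjusted p = 0.411). Neither passed, though the arrays of the times did not overlap for either. The fourth was Atoh8, another helix-loop-helix factor, with overlapping arrays (-0.58 ± 0.27). Ccn2, a target of TGF-beta, and the BMP antagonist Nog had changes of 0.43 and 0.06. Without 24 h replicate 2 the median was -0.32.

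The probe set 1427760_s_at matches Prl2c2, Prl2c3, Prl2c4 and Gm7040, which are near-identical prolactin-family genes and cannot be told apart by it. It read 276, 169 and 362 at 12 h and 75.5, 59.0 and 81.8 at 24 h, a log2 change of -1.64 ± 0.26 (adjusted p = 0.0205). The arrays did not overlap. The mean at 48 h was 224, and the step from 24 h to 48 h passed as higher (1.43 ± 0.26, adjusted p = 0.0169).

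Of the 3 probe sets that were higher at 24 h, 2 had 1 symbol. Actg2, the smooth muscle gamma actin, read 505, 580 and 410 at 12 h and 1039, 877 and 900 at 24 h. All 24 h arrays were above all 12 h arrays, and it rose by a log2 change of 0.90 ± 0.16 (adjusted p = 0.0349). Its mean at 48 h was 588. The call held under 13 of 26 alternatives, with adjusted p from 0.00314 to 0.184.

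Smooth muscle and pericyte markers were listed because such cells can lie in muscle. The list did not include Actg2, and of its 10 members tested on the A arrays none passed. At an unadjusted p under 0.05, 4 were higher and none lower, against 3.63% and 4.12% of all A genes. Transgelin, Tagln, read 1621, 1438 and 1371 at 12 h and 2771, 3376 and 2987 at 24 h (1.04 ± 0.25, adjusted p = 0.185). Pdgfrb, the PDGF receptor of pericytes and fibroblasts, read 750, 646 and 711 and then 981, 1099 and 1254 (0.65 ± 0.18, adjusted p = 0.311). Mcam and Smtn had changes of 1.05 ± 0.31 and 0.36 ± 0.17. Acta2, an actin that myoblasts also express, had means of 13780 and 13980, and the pericyte gene Rgs5 had 148 and 93.0. The summed intensity of the 10 markers ranged from 25950 to 30470 at 12 h and from 30070 to 32800 at 24 h, and the list's median was 0.09, falling to 0.03 when 12 h replicate 3 was left out. The part of these cells in the Actg2 change was not tested.

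Kdelr3, a receptor that returns escaped proteins from the Golgi to the endoplasmic reticulum, rose from 373, 304 and 407 at 12 h to 647, 648 and 993 at 24 h. The groups were separate, and 24 h replicate 3 was well above its companions. The log2 change was 1.03 ± 0.19 (adjusted p = 0.0454), and the mean at 48 h was 423. The call held under 12 of 26 alternatives. Of 24 tested endoplasmic reticulum chaperones none had an unadjusted p under 0.05, and their median change was -0.02. Hspa5, the main chaperone of that compartment, had means of 10500 and 9255.

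The third probe set, 1424556_at, is unnamed in the annotation used here. It read 204, 202 and 199 at 12 h and 437, 446 and 386 at 24 h, with no overlap (1.01 ± 0.17, adjusted p = 0.0302). At 48 h its mean was 485.

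In all, 12 of 13577 A array probe sets passed, 3 higher and 9 lower, and 962 (7.09%) had an unadjusted p under 0.05. With median scaling 14 passed, of which 35.7% were higher against 25% in the main analysis. The count depended on single arrays. Without 12 h replicate 1 only Ptgr1 passed, and without 24 h replicates 1, 2 and 3 the counts were 5, 5 and 6, all lower. Without 48 h replicate 3, which enters only the spread, 21 passed. Weighting arrays by their quality gave 106 calls, 58 higher and 48 lower, among them all 12. Those weights gave 12 h replicate 1 a weight of 2.31 and 12 h replicates 2 and 3 weights of 0.487 and 0.572.

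The direction of the 12 held in each run with an array left out, but most calls did not. Without 12 h replicate 1 Cyp1a1, Gsta4 and Nqo1 each had an adjusted p of 0.0529, and they passed without any other single array. Aldh3a1 did not pass without 12 h replicate 1 or 2 or any of the 24 h arrays (adjusted p 0.0573 to 0.148), nor Blvrb without 12 h replicate 1 or 2 or 24 h replicate 1 or 3 (0.0527 to 0.129). Id3 lost its call without any of the 12 h arrays and without 24 h replicate 1 or 2 (0.0648 to 0.195). For the Prl2c probe set 1427760_s_at and for Actg2 it was lost without 12 h replicate 1 or 3 or any 24 h array, with an adjusted p of 0.0603 to 0.149 and of 0.0856 to 0.184. Kdelr3 (0.0697 to 0.223) and 1424556_at (0.0603 to 0.195) needed each of the 6 arrays, and 1424783_a_at each but 24 h replicate 1 (0.0617 to 0.223).

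Genes of the amino acid and unfolded protein stress response had mostly positive changes that did not pass on the A arrays. This response is run by ATF4, a factor translated when the kinases that sense amino acid shortage or unfolded protein phosphorylate eIF2-alpha. It raises amino acid transporters, tRNA synthetases and serine and one-carbon enzymes. Of 31 tested list members, none passed. At an unadjusted p under 0.05, 13 were higher and none lower, against 3.63% and 4.12% of all A genes. The median log2 change was 0.43 and 26 of 31 were positive. Without 24 h replicate 2 the count was 9 and the median 0.38, and with array weights 11 of the 31 passed.

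Trib3, a pseudokinase induced by ATF4 and CHOP, came nearest to the threshold. It read 131, 163 and 153 at 12 h and 355, 327 and 313 at 24 h, without overlap (1.08 ± 0.21, adjusted p = 0.0718). Atf5, a related transcription factor, read 1292, 1036 and 831 and then 1786, 1887 and 1557 (0.74 ± 0.16, adjusted p = 0.0912). Both pairs of groups were separate. Nupr1, a stress-induced nuclear protein, read 511, 512 and 299 and then 833, 940 and 791 (0.97 ± 0.22, adjusted p = 0.148). Mthfd2, the mitochondrial one-carbon enzyme, read 1206, 1040 and 1031 and then 1890, 1943 and 1415 (0.66 ± 0.15, adjusted p = 0.126), and a second, brighter probe set had a change of 0.47.

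The transporter subunits Slc7a5 and Slc3a2, which together import large neutral amino acids, had changes of 0.67 ± 0.15 and 0.47 ± 0.17. Slc7a5 read 2191, 2064 and 1535 at 12 h and 3256, 3219 and 2703 at 24 h (adjusted p = 0.148). The serine synthesis enzyme Psat1 had means of 4842 and 6284 (0.37 ± 0.13), and the glutathione-degrading enzyme Chac1 626 and 924 (0.51 ± 0.18). For both, the arrays overlapped. The transcripts of the regulators themselves had smaller changes, with Atf4 at 0.09 ± 0.14 and Ddit3, which encodes CHOP, at 0.35 ± 0.22. Asparagine synthetase Asns read 4492, 5428 and 3819 and then 6271, 7669 and 3994, so 24 h replicate 3 lay within the 12 h arrays (0.35 ± 0.20, adjusted p = 0.772).

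Of 18 tested tRNA synthetases, which charge tRNAs with amino acids, none passed, and the median change was 0.22. At an unadjusted p under 0.05, 7 were higher, against 3.63% of all A genes, and none lower. Gars, for glycine, read 4123, 3131 and 3477 at 12 h and 4910, 6782 and 4894 at 24 h (0.62 ± 0.15, adjusted p = 0.178). Wars, for tryptophan, read 873, 899 and 870 and then 1317, 1303 and 1304 (0.56 ± 0.14, adjusted p = 0.196). The arrays of the times were apart for both. Other Wars probe sets on the A arrays did not share this change, at -0.12 ± 0.13, -0.12 ± 0.16 and 0.26 ± 0.16, and the one repeated on B had -0.02 ± 0.13. Without 12 h replicate 3, and likewise without 24 h replicate 2, the count was 4.

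**Figure D3:**
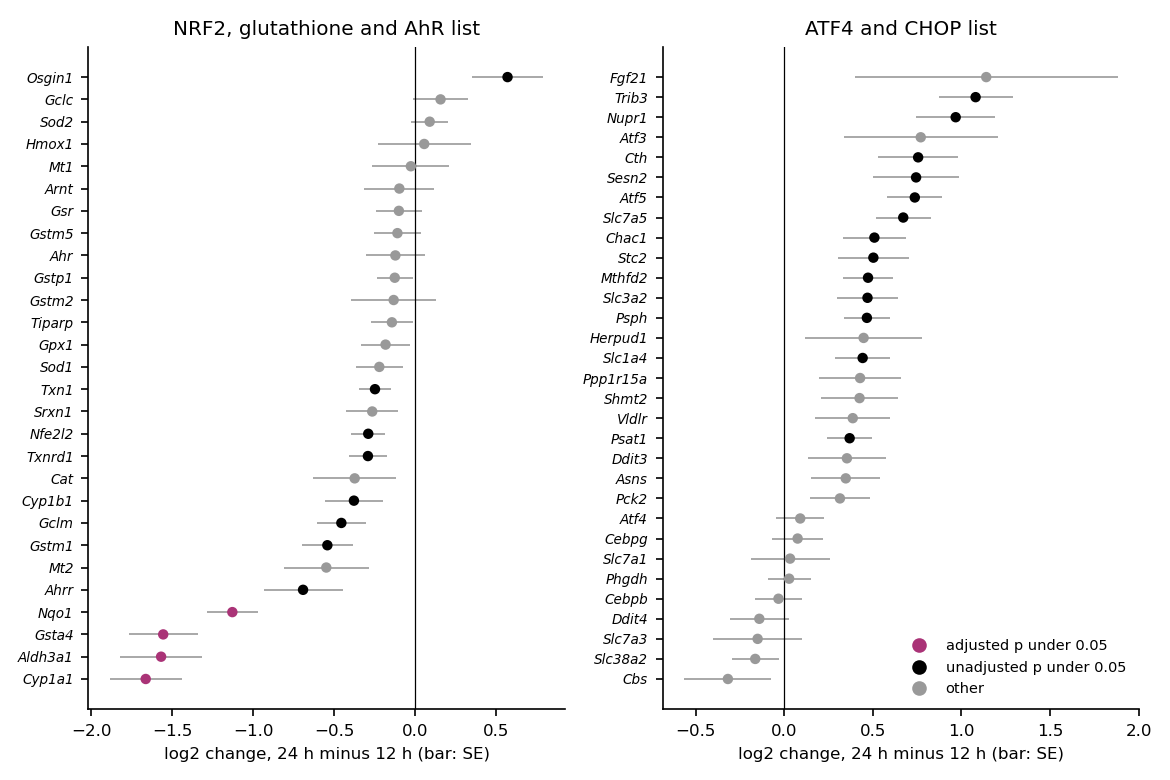
Log2 change at 24 h against 12 h on the A arrays, with SE as the bar, for 28 genes of the NRF2, glutathione and receptor list (left) and 31 of the ATF4 and CHOP list (right), each gene by its brightest probe set. Purple marks an adjusted p under 0.05, black an unadjusted p under 0.05; on the left 4 genes are purple, and on the right none is and 13 are black.

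Fatty acid uptake and oxidation genes had 20 tested members, with none past the threshold and a median of -0.19. At an unadjusted p under 0.05, 4 were lower, against 4.12% of all A genes. Pdk4, the kinase that turns down pyruvate oxidation, read 405, 302 and 588 at 12 h and 204, 200 and 240 at 24 h (-0.91 ± 0.19, adjusted p = 0.0851). Cpt1a, which carries long-chain fatty acids into mitochondria, read 1185, 1496 and 1322 and then 884, 905 and 851 (-0.59 ± 0.13, adjusted p = 0.137). Neither overlapped. Angptl4, an inhibitor of lipoprotein lipase, read 810, 817 and 805 and then 473, 440 and 320 (-0.97 ± 0.23, adjusted p = 0.148), and the thiolase Acaa2 had -0.28 ± 0.13 with overlap. Without 12 h replicate 1 or 2 the median was -0.09 or -0.06. With 12 h replicate 3 left out, 7 were lower.

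On the A arrays DNA replication genes had no tested member with a positive change among 38, and a median of -0.25, although 2 changes were positive under median scaling. None passed, and 8 were lower at an unadjusted p under 0.05, against 4.12% of all A genes. Mcm10, a replication initiation factor, read 365, 527 and 573 at 12 h and 318, 343 and 313 at 24 h (-0.54 ± 0.16, adjusted p = 0.376), while its B probe set had the opposite sign (0.15 ± 0.34). Rrm1, the large subunit of ribonucleotide reductase, read 3798, 3617 and 4031 and then 3062, 2895 and 3034 (-0.35 ± 0.10, adjusted p = 0.379). The polymerase clamp Pcna had means of 8992 and 7303 (-0.29 ± 0.10). Single 12 h arrays moved these numbers: 15 were lower without replicate 1, and 5 without replicate 3, where 11 of 38 changes were positive and the median was -0.13. On the B arrays 3 of 11 tested replication genes had positive changes, none had an unadjusted p under 0.05, and the median was -0.31.

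Mitosis genes, 39 tested on A, had none at an unadjusted p under 0.05 and a median of -0.04. Without 12 h replicate 3 the median was 0.16 and 4 were higher, and without 24 h replicate 3, 3 were lower. On B, 2 of 15 were lower, the spindle checkpoint genes Bub1b (-0.64 ± 0.23) and Bub3 (-0.60 ± 0.25), both with an adjusted p of 0.999. Among all B genes 2.56% were lower and 1.94% higher. The A changes of Bub1b and Bub3 were smaller, at -0.26 and -0.13.

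Of 42 tested cytosolic ribosomal protein genes 7 were lower at an unadjusted p under 0.05 and none higher, none passed, and the median was -0.19. The share lower among all A genes, for this list and the next, was 4.12%. Rpl6 read 13581, 14773 and 13233 at 12 h and 11306, 11018 and 10236 at 24 h (-0.35 ± 0.11, adjusted p = 0.422). The count and the median depended on the scaling: under quantile normalization 2 were lower and the median was -0.02. Without 24 h replicate 3 or 12 h replicate 2, 2 were lower, and 11 without 12 h replicate 1. Ubiquitous oxidative phosphorylation genes, 48 tested, had 4 lower and none higher with a median of -0.11, and median scaling left 1 lower, as did leaving out 24 h replicate 1 or 2, while 0 were left without 12 h replicate 1. Ndufv1, a complex I subunit, had means of 3864 and 3017 (-0.37 ± 0.14, adjusted p = 0.55), but other Ndufv1 probe sets had changes of -0.02 ± 0.13 and 0.01 ± 0.13.

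Contractile and metabolic muscle genes had small positive medians that leaned on 12 h replicate 3. Z-disc genes had 4 higher and 1 lower of 20 at an unadjusted p under 0.05 (median 0.22), calcium handling genes 3 higher of 15 (median 0.24), muscle energy genes 3 higher of 18 (median 0.24) and thick filament genes 2 higher of 13 (median 0.20). None passed. Without 12 h replicate 3 those medians were 0.13, 0.02, 0.04 and -0.06. Among all A genes 3.63% were higher and 4.12% lower. With 1 of the 6 compared arrays left out at a time, the higher genes numbered 2 to 8, 0 to 5, 1 to 6 and 1 to 4 in these lists, each highest without 24 h replicate 3. Lmcd1, a LIM-domain protein of the Z-disc list, read 434, 345 and 267 at 12 h and 747, 867 and 509 at 24 h (0.98 ± 0.34, adjusted p = 0.491). Perinatal myosin Myh8 read 1364, 856 and 653 and then 1853, 2084 and 1127 (0.83 ± 0.26, adjusted p = 0.427). Its arrays overlapped, as 24 h replicate 3 was below 12 h replicate 1.

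Thin filament genes on the A arrays had 1 of 14 higher and a median of 0.03, which was -0.13 with 1 lower when 12 h replicate 3 was left out and 0.12 with 3 higher when 24 h replicate 3 was. The counts in this paragraph stand beside 3.63% higher and 4.12% lower among all A genes. Myogenic regulators had 1 higher and 1 lower of 11 with a median of -0.21. Without 24 h replicate 2 none was left on either side and the median was -0.02, with quantile normalization it was -0.05, and without 24 h replicate 3, 3 were lower. The higher one, Mef2d, read 956, 891 and 483 and then 1117, 1161 and 1000 (0.54 ± 0.25), but other Mef2d probe sets had changes of -0.09 ± 0.26 on A and -0.19 ± 0.39 on B. The lower one, the histone deacetylase Hdac5, had means of 855 and 667 (-0.36 ± 0.13). Cxcr4, the chemokine receptor among the satellite cell and myoblast markers, read 529, 651 and 675 and then 223, 285 and 392 without overlap (-1.03 ± 0.24, adjusted p = 0.162). It was 1 of 13 markers lower at an unadjusted p under 0.05, beside 2 higher, a count that was 0 when either 12 h replicate 3 or 24 h replicate 1 was left out and 3 when 12 h replicate 2 was.

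**Figure D4:**
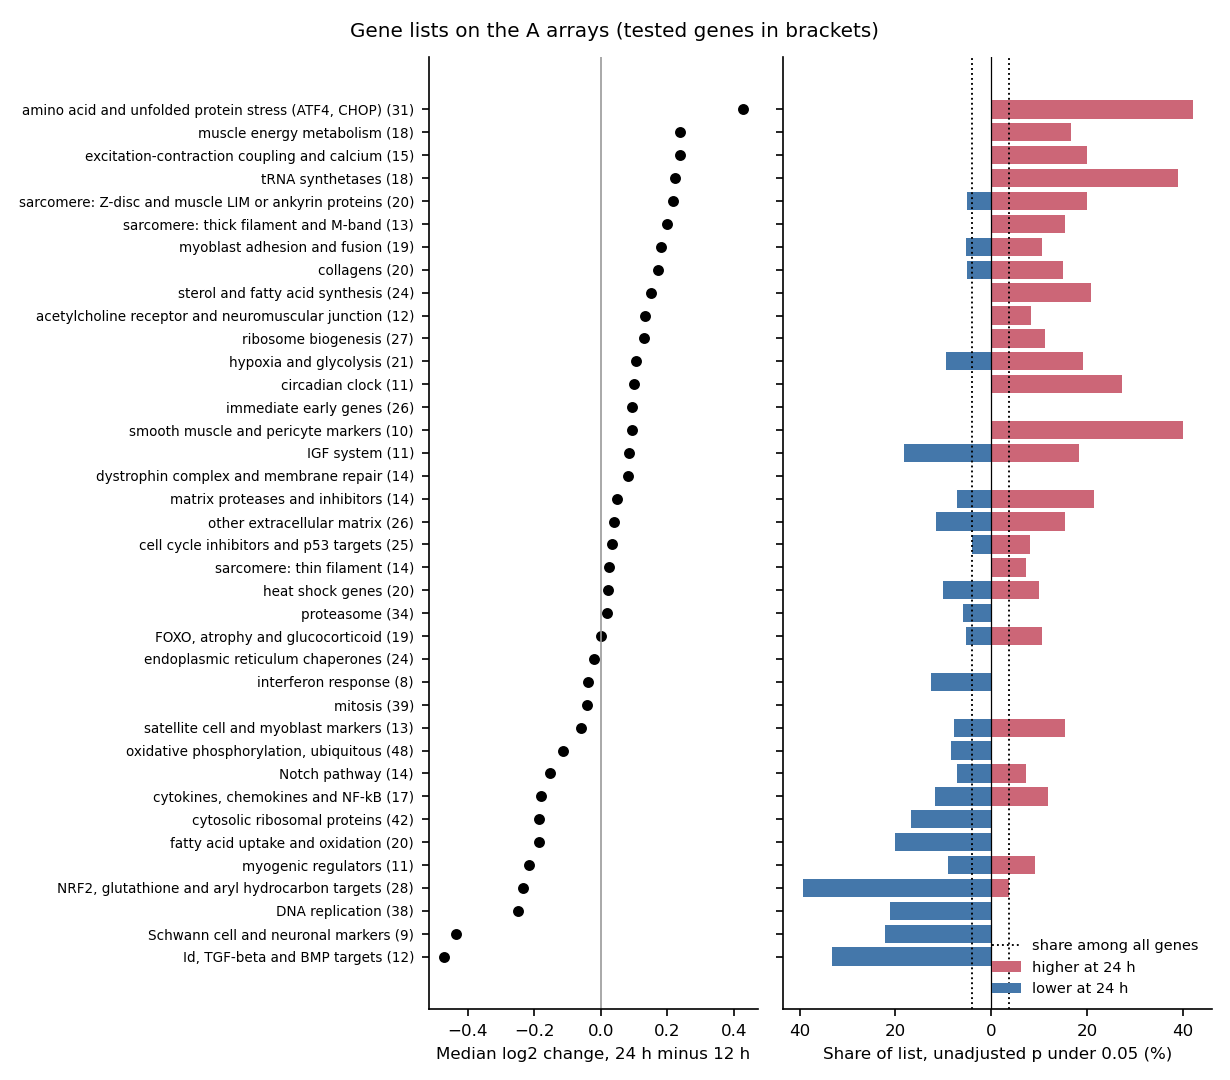
Gene lists with at least 8 tested genes on the A arrays: the median log2 change at 24 h against 12 h (left) and the percentage of members higher (red) or lower (blue) at an unadjusted p under 0.05 (right), with dotted lines at 3.63% and 4.12%, the shares among all genes. With all arrays the ATF4 list has a median of 0.43 and the Id list -0.47, the ends of the range. This order rests on single arrays: with 24 h replicate 3 left out, calcium handling genes (0.51) lie above the ATF4 list (0.49), and with 24 h replicate 1 left out, the Schwann cell and neuronal list (-0.45) lies below the Id list (-0.34), as it does with 24 h replicate 2 left out (-0.37 and -0.32).

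Secreted and matrix genes included several near the threshold. Inhba, the activin A subunit, read 22, 27.9 and 113 at 12 h and 175, 195 and 281 at 24 h (1.94 ± 0.41, adjusted p = 0.0912). Ptx3, a secreted pentraxin of innate immunity, read 204, 190 and 225 and then 523, 534 and 582 (1.34 ± 0.28, adjusted p = 0.0851). Neither passed. Loxl1, which cross-links elastin, read 2226, 2180 and 2126 and then 3202, 3344 and 3711 (0.64 ± 0.14, adjusted p = 0.0912).

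Ecm1, extracellular matrix protein 1, had the opposite sign, at 1516, 1680 and 1780 and then 1149, 1144 and 1061 (-0.56 ± 0.12, adjusted p = 0.0912). Matrix genes other than collagens had 4 higher and 3 lower of 26 at an unadjusted p under 0.05, with a median of 0.04. Collagens had 3 higher and 1 lower of 20, and among the higher ones Col8a1 read 366, 488 and 598 at 12 h and 683, 880 and 1078 at 24 h (0.85 ± 0.20, adjusted p = 0.162). Their median was 0.17, and 0.03 without 24 h replicate 3, and 5 were higher without 12 h replicate 2.

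The remaining genes nearest the threshold belong to no single list. On the higher side were the ubiquitin ligase Ubr3 (1.07 ± 0.21), Lrig1, a negative regulator of EGF receptor signalling (0.97 ± 0.19), the transcription regulator Aatf (0.67 ± 0.13) and the filamin-binding Rflnb (0.81 ± 0.17), with adjusted p from 0.0718 to 0.0851. On the lower side Kazald1 had the smallest adjusted p, 0.06, with readings of 407, 567 and 373 at 12 h and 237, 234 and 232 at 24 h (-0.87 ± 0.16). Gpaa1, a subunit of the GPI transamidase, read 762, 991 and 838 and then 454, 446 and 242 (-1.19 ± 0.24, adjusted p = 0.075). Tmem176a followed at -0.998 ± 0.20, galectin Lgals3 at -0.66 ± 0.14, Ttc8, a component of the BBSome, at -0.68 ± 0.15, the peptide-loading factor Tapbp at -0.69 ± 0.15 and the ubiquitin ligase Rnf149 at -0.72 ± 0.16. None passed, and they were chosen among probe sets whose times did not overlap, which 12.5% of all tested A probe sets met. Other probe sets of a gene could differ: for Gpaa1 they had changes of 0.08 ± 0.20 and 0.15 ± 0.53, and for Ubr3, on B, 0.18 ± 0.15, -0.04 ± 0.28 and 0.16 ± 0.19.

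Many markers of other cell types lay below the intensity filter on the A arrays, so the sums here cover only the brighter ones. The A type carried 18 macrophage and leukocyte, 15 endothelial and 15 fibroblast and tendon markers. It also carried 17 Schwann cell and neuronal and 10 adipocyte markers. Of 4 tested macrophage and leukocyte markers none had an unadjusted p under 0.05, and Cd14 and Csf1r had means of 167 and 155 at 24 h. Their summed intensity was 580 to 735 at 12 h and 517 to 642 at 24 h. Endothelial markers, 4 tested, summed to 417 to 656 and 467 to 638, and Eng was higher at an unadjusted p under 0.05, at 86.3 and then 146 (0.69 ± 0.30). Fibroblast and tendon markers, 4 tested, summed to 5408 to 6374 and 5413 to 5780, with none at an unadjusted p under 0.05. On B, 1 of 4 was higher, the matrix proteoglycan Dcn, with means of 163 and 363 and overlapping arrays (1.21 ± 0.52, adjusted p = 0.999). The B counts in this paragraph stand beside 1.94% higher and 2.56% lower among all B genes. Of 9 Schwann cell and neuronal markers 2 were lower, the neurofilaments Nefl (103 and 45.1) and Nefm (78.9 and 43.7), and the list summed to 3795 to 4600 and 4360 to 4650. These Nefl and Nefm means are near or below 101, the intensity cut of the filter, which was applied to the mean over all 15 arrays. With 24 h replicate 3 left out none was lower, and with the first replicate of either time left out, 3 were. On B, 1 of 2 was lower, Nefl again (-0.53 ± 0.22). Adipocyte markers, 3 tested, had Scd1 higher (0.45 ± 0.17), a lipid synthesis gene of many cells.

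On the B arrays 0 of 13506 probe sets passed in limma (0% called), and 566 (4.19%) had an unadjusted p under 0.05. The smallest adjusted p was 0.265, and 1 probe set passed, as lower, without 24 h replicate 2, without 24 h replicate 3 or without 48 h replicate 1. Standard errors of the log2 changes were larger on B, with a median of 0.266 against 0.179 on A. None of the 9 named genes had a tested probe set on B.

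The B probe sets nearest the threshold were taken among those whose times did not overlap, which 9.09% of all tested B probe sets met. Abcc4, a pump for organic anions and cyclic nucleotides, read 915, 818 and 909 at 12 h and 352, 573 and 299 at 24 h (-1.13 ± 0.20, adjusted p = 0.265). Ddx50, a nucleolar RNA helicase, read 169, 122 and 143 and then 685, 421 and 914 (2.05 ± 0.35, adjusted p = 0.265). Dmp1, a matrix phosphoprotein of bone, read 1436, 1664 and 1809 and then 540, 759 and 627 (-1.34 ± 0.28, adjusted p = 0.569). Vgll3, a TEAD cofactor, read 3194, 2412 and 3214 and then 4472, 5792 and 5948 (0.88 ± 0.19, adjusted p = 0.569). None of these passed, nor did Gigyf2 (1.94 ± 0.38), Rgma (0.94 ± 0.22), Sema3e (0.49 ± 0.12), Nrn1 (-0.98 ± 0.22), Gabpb2 (-1.78 ± 0.41) or Mtmr11 (-0.74 ± 0.18). Other B probe sets of Gigyf2 (-0.05 ± 0.34) and of Gabpb2 (0.04 ± 0.27 and -0.18 ± 0.16) did not share these changes.

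Of the lists on B, 7 ATF4 and CHOP genes were tested and 2 were higher at an unadjusted p under 0.05, against 1.94% of the 6749 B genes higher and 2.56% lower. These were the cationic amino acid transporter Slc7a1, at 5612, 7001 and 4143 and then 8788, 7794 and 9652 (0.67 ± 0.23), and the serine synthesis enzyme Psph (0.49 ± 0.17). Of 4 NRF2 list genes 2 were lower, Gclm at 727, 482 and 549 and then 312, 411 and 384 (-0.63 ± 0.22), and superoxide dismutase Sod1 (-0.38 ± 0.15), whose other B probe set had the opposite sign (0.26 ± 0.19). All 4 had an adjusted p of 0.999. On the A arrays Slc7a1 had a smaller change, 0.03, while that of Gclm was -0.45.

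The A and B types share 100 tested probe sets. Across them the changes had Pearson r 0.357 and Spearman rho 0.279, and 60 had the same sign. Probe sets are not independent replicates, and most of these changes were small against their standard errors.

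**Figure D5:**
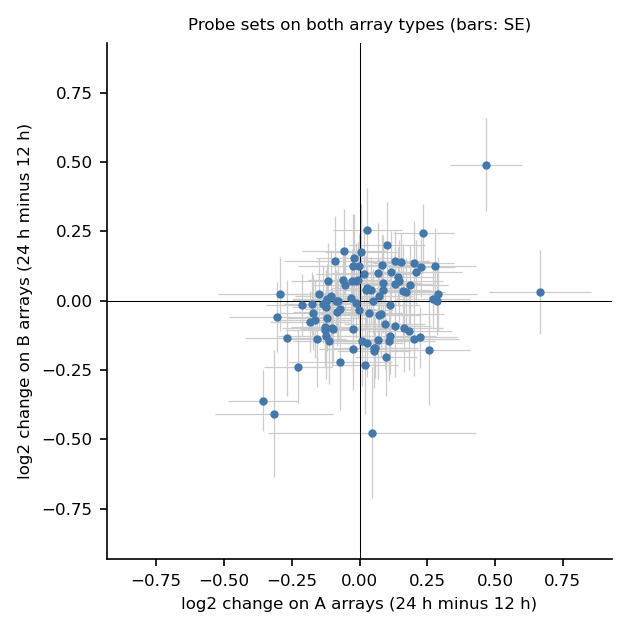
Log2 change at 24 h against 12 h of the 100 probe sets present on both types, A arrays on the horizontal and B arrays on the vertical axis, with SE as bars. Most points lie near 0 on both axes, and 60 of 100 have the same sign on A and B.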

How the data were processed

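Total RNA was the starting material for the Affymetrix arrays, and the labels name only a standard Affymetrix protocol. The authors deposited linear intensities, 1 per probe set, and how these were computed from the scans is not given in the sources used here. The mean of the deposited intensities, trimmed by 2% at each end, was 500.2 on every A and 500.1 on every B array, so each array had been scaled. The number of arrays limits the precision.

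The log2 of intensity plus 16 was fitted in R 4.3.3 by limma 3.58.1, using lmFit and a trended eBayes, with 1 mean per time over all 15 arrays of a type. The 64 control probe sets and those below the 40th percentile of mean intensity were left out. P-values were adjusted by Benjamini-Hochberg within a type, with a threshold of 0.05. Names came from the platform annotation: 20393 on A and 14674 on B had 1 symbol, 691 and 245 several, and 1606 and 7656 none. None was named from several symbols.

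Named were all called probe sets with 1 symbol, the 10 higher and 10 lower nearest the threshold on A (5 and 5 on B) whose groups did not overlap, and up to 3 members per list. A few others were chosen after their values were seen. The members and the 43 lists were chosen with earlier results of these data known. List counts use 1 probe set per gene, the brightest. Alternatives were other pseudocounts, filters and scalings, a replicate block, no trend, a robust fit, array weights, only the arrays compared, and each array left out. Tested on simulated data with 200 changed probe sets, the A fit recovered 76% of changes of 1 and 96% of changes of 2 on the log2 scale, and the B fit 32% and 79%. Of the calls, 4.44% and 7.5% were false. The simulated noise was independent between probe sets and had the same spread on every array, which the real arrays need not share. These rates may thus not carry over to the real comparison. Figures were drawn with matplotlib 3.10.9.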

Additional observations from a re-analysis of the deposited data

How the results depend on the processing

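The A count of 12 was 5 with no intensity filter, 7 with no intensity trend and 106 with array weights. With only the 12 h and 24 h arrays it was 4, and 2 of these were among the 12. Under that setting 1 gene of the NRF2 list and 0 of the Id list passed. Most of the 12 calls thus needed the spread shared with the other times. With single arrays left out the A count ranged from 1 to 21, and the B count from 0 to 1. The B count was 1 without 24 h replicate 2 or 3 or 48 h replicate 1. Deviations of same-numbered 12 h and 24 h arrays correlated at -0.04, -0.20 and 0.05 on A, so no pairing by replicate number was visible across probe sets. These values cannot show that same-numbered arrays had separate origins. With the replicate block 10 A and 0 B probe sets passed, 9 of the 10 among the 12. Direction turned for 3 genes that had not passed. Atf4 ranged from -0.044 to 0.23 and Hmox1 from -0.12 to 0.29 with single arrays left out, and Acta1 was 0.0086 under quantile normalization. The cause of these shifts was not tested. Of 4211 values of 163 named genes under alternatives, 4050 kept their direction and side of the threshold. Dim probe sets and 3 arrays per time limit what could be detected.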

Other observations

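Smaller groups gave few members near the threshold, and none of the genes below passed. Of 24 sterol and fatty acid synthesis genes 5 were higher at an unadjusted p under 0.05 with none lower, among them Dhcr7, the last enzyme of cholesterol synthesis (0.51 ± 0.16, adjusted p = 0.411), and Cyp51 (0.36 ± 0.15). Leaving out 12 h replicate 1 or 24 h replicate 3 left 1, and leaving out 12 h replicate 3 gave 9. Of 11 circadian clock genes 3 were higher and none lower, where 3.63% of all A genes were higher and 4.12% lower. Bhlhe40, a repressor of the clock, read 239, 125 and 133 at 12 h and 455, 334 and 251 at 24 h without overlap (1.01 ± 0.30, adjusted p = 0.382). The other two were the nuclear receptor Nr1d1 (0.46 ± 0.18) and Nfil3 (0.44 ± 0.20), and 1 of the 3 was left without 12 h replicate 3 or 24 h replicate 2.

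Signalling and protease genes went both ways. Of 11 IGF system genes on the A arrays 2 were higher, Igf1 at 260, 249.9 and 289 and then 300.2, 399 and 536 (0.57 ± 0.26; 0.15 and 0.16 in its other A probe sets) and Igfbp3 (0.63 ± 0.29), and 2 lower, Igfbp6 (-0.62 ± 0.19) and Igfbp4 (-0.45 ± 0.18). Igf1 and Igfbp3 also had positive changes on the B arrays, at 0.75 ± 0.31 and 0.49 ± 0.15, and on the A arrays neither was left without 12 h replicate 1 or 2 or 24 h replicate 2. Adamts1, a secreted protease, read 147, 158 and 253 at 12 h and 314, 355 and 486 at 24 h (1.00 ± 0.24, adjusted p = 0.178), whereas the metalloproteinase Mmp11 read 281, 394 and 329 and then 209, 184 and 252 (-0.60 ± 0.16, adjusted p = 0.311). Hk2, the inducible hexokinase, read 474, 444 and 532 and then 726, 648 and 872 (0.61 ± 0.19, adjusted p = 0.446), and the phosphofructokinase Pfkp had the opposite sign (-0.40 ± 0.13), though not in its other A probe set (-0.01 ± 0.16).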
